A study of Mus musculus with 12 samples.

Results

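The 10 genes described here handle iron in liver or set how much of it enters the blood: Hamp and Hamp2 (hepcidin and its duplicate), Slc40a1 (ferroportin), Slc39a14 (ZIP14), Tfrc and Tfr2 (transferrin receptors 1 and 2), Trf (transferrin), Hfe, Fth1 and Ftl1 (ferritin heavy and light chains). They were chosen by symbol from a matrix of 22456 genes, and all 10 were among the 11507 genes tested, whose RPKM (read counts scaled to transcript length and library size) averaged 0.5 or more over the libraries. The RNA came from liver of male BALB/cByJ mice aged 2 to 8 months, either Lpin1+/+ littermates or Lpin1-/- (fatty liver dystrophy, FLD) mice, which carry the Lpin1 fld mutation throughout the body and lack lipin 1, a phosphatidate phosphatase that also acts as a transcriptional coactivator. Mice were fasted singly housed for 16 hours (fasted) or were fasted for 16 hours and then refed for 5 hours (refed), with 3 mice in each of the 4 groups. Refed livers were taken later in the day than fasted livers, so feeding state and time of day cannot be told apart, and in whole liver fewer cells of a type and less RNA per cell cannot be told apart.

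Hepcidin is a peptide hormone that hepatocytes secrete when body iron stores or inflammatory signals rise. It binds ferroportin, the only known cellular iron exporter, and causes its degradation, so that macrophages, enterocytes and hepatocytes release less iron. Within cells, iron regulatory proteins (IRPs) bind hairpins called iron-responsive elements (IREs) when iron is low, which blocks translation of ferritin and ferroportin mRNAs and stabilizes Tfrc mRNA. RNA levels therefore leave out much of what is known to control Fth1, Ftl1 and Slc40a1.

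The IREs are shown because they set 4 of these genes apart from the rest in sequence. A hairpin pattern was searched in the GENCODE M21 transcripts (GRCm38): an unpaired C, 5 bases that pair with 5 bases across a loop of CAGTG followed by A, C or T, with Watson-Crick or G-U pairs. It was present in 222 of 21877 protein-coding genes (1.01%) and in 4 of the 10 genes. For all genes a match in any protein-coding transcript counted, and for the 10 genes only a match in the transcript numbered 201. Each line gives the match with 5 flanking bases on each side, 5′ to 3′ on the strand of the gene, with the loop in capitals, and a match is a description and not a measured binding site.
Fth1: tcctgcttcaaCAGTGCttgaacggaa
Ftl1: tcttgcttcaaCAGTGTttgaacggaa
Slc40a1: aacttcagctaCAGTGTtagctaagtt
Tfrc match 1: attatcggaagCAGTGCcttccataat
Tfrc match 2: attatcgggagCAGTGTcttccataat
Tfrc match 3: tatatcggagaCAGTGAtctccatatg
Tfrc match 4: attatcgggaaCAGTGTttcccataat
The single matches lay in the 5′ UTR, without the flanks at chr19:9982738-9982754 (plus strand) in Fth1, chr7:45459785-45459801 (minus strand) in Ftl1 and chr1:45925471-45925487 (minus strand) in Slc40a1. All 4 Tfrc matches lay in the 3′ UTR on the plus strand, within chr16:32631225-32631732.

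Library depth was high and even, with 93.49 to 124.9 M mapped reads per library, of which 72.7% to 78.8% were in genes. Lpin1 RPKM was 22, 0.726 and 1.76 in fasted Lpin1+/+ replicates 1 to 3 and 2.92, 0.784 and 2.76 in refed Lpin1+/+ liver. In Lpin1-/- liver it was at most 0.0597, so the genotypes did not overlap in either feeding state. Of the 12 libraries, 3 stood apart. Fasted Lpin1+/+ replicate 1 had the highest Lpin1 level and the lowest Hamp level of all 12 libraries. Refed Lpin1+/+ replicate 2 had a summed level of 22 acute phase genes of 109372 RPKM, against 14478 to 51635 RPKM in the other 11 libraries. Fasted Lpin1-/- replicate 1 had the highest sums of cholangiocyte markers (452 RPKM, against 19.2 to 103), erythroid markers (1944 RPKM, against 237 to 905) and Kupffer cell markers (1001 RPKM, against 109 to 939). Without it, the fasted genotype calls held for Slc40a1 (log2 difference -2.03, adjusted p = 0.00588) and Slc39a14 (2.67, adjusted p = 0.0117) and not for Hamp (3.39, adjusted p = 0.077). Hepatocyte markers summed to 41032 to 87786 RPKM, against 109 to 1001 RPKM for Kupffer cell, 98 to 427 RPKM for stellate cell, 32.9 to 93.1 RPKM for sinusoidal endothelial and 19.2 to 452 RPKM for cholangiocyte markers, and none of these marker genes was at 0 in all 12 libraries.

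Across the contrasts, 1 of the 10 genes was altered by refeeding in Lpin1+/+ liver (Tfrc, higher), where 1.72% of all genes were altered, 1.52% higher and 0.200% lower. In Lpin1-/- liver 1 of 10 was altered by refeeding (Slc40a1, higher), against 20.7% of all genes, 17.8% higher and 2.92% lower. Between the genotypes, 3 of 10 were altered in fasted liver (Hamp and Slc39a14 higher, Slc40a1 lower), against 18.8% of all genes, 5.63% higher and 13.2% lower, and 1 of 10 in refed liver (Slc39a14, higher), against 6.67%, 2.60% higher and 4.07% lower. A different feeding response was called for 1 of 10 and for 1.28% of all genes. Averaged over genotypes, 2 of 10 were altered by feeding (19.0% of all genes), and averaged over feeding states, 1 of 10 by genotype (21.8% of all genes). A single gene is 10% of such a list, so these counts do not set it apart from the background.

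The median log2 difference of the 10 genes was 0.21 and 0.13 for refeeding in Lpin1+/+ and Lpin1-/- liver, and -0.00 and -0.09 for genotype in fasted and refed liver. Over all genes it was 0.19, 0.25, -0.14 and -0.07. Rescaling each library by its median ratio moved these medians of all genes to 0.02, -0.03, 0.02 and -0.02, and the percentage of calls that were increases went from 88.4% to 63.2%, from 85.9% to 59%, from 29.9% to 47% and from 39% to 50.1%. The directions of all 10 calls made on these genes were unchanged under that and every other alternative tried.

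**Figure D1:**
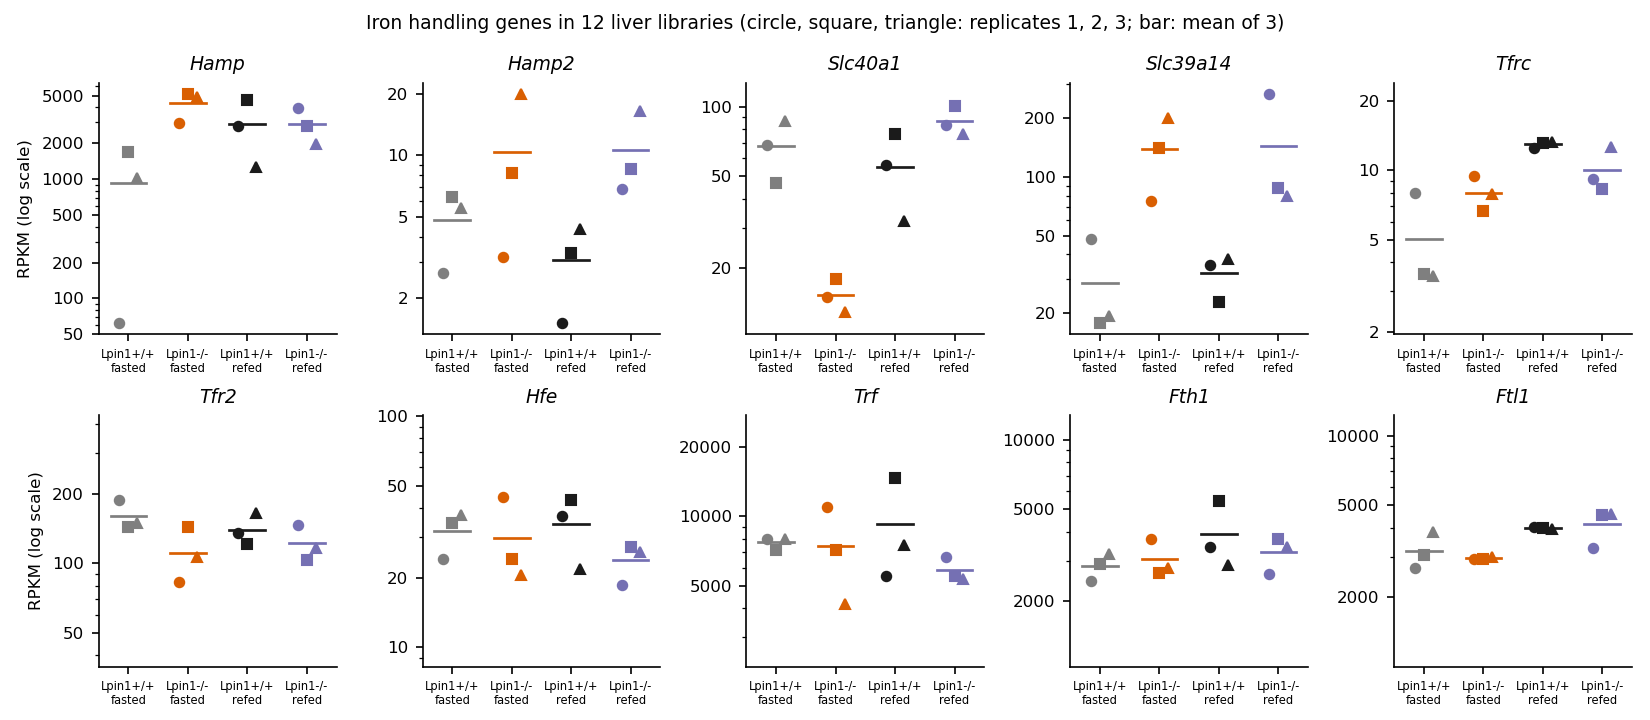
RPKM (log scale, with a separate range in each panel) of the 10 iron handling genes in the 12 libraries, by group, with replicates 1 to 3 as circle, square and triangle and the group mean as a bar. Slc40a1 in fasted Lpin1-/- liver lay between 13 and 17.9 RPKM, below the other 9 libraries.

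**Figure D2:**
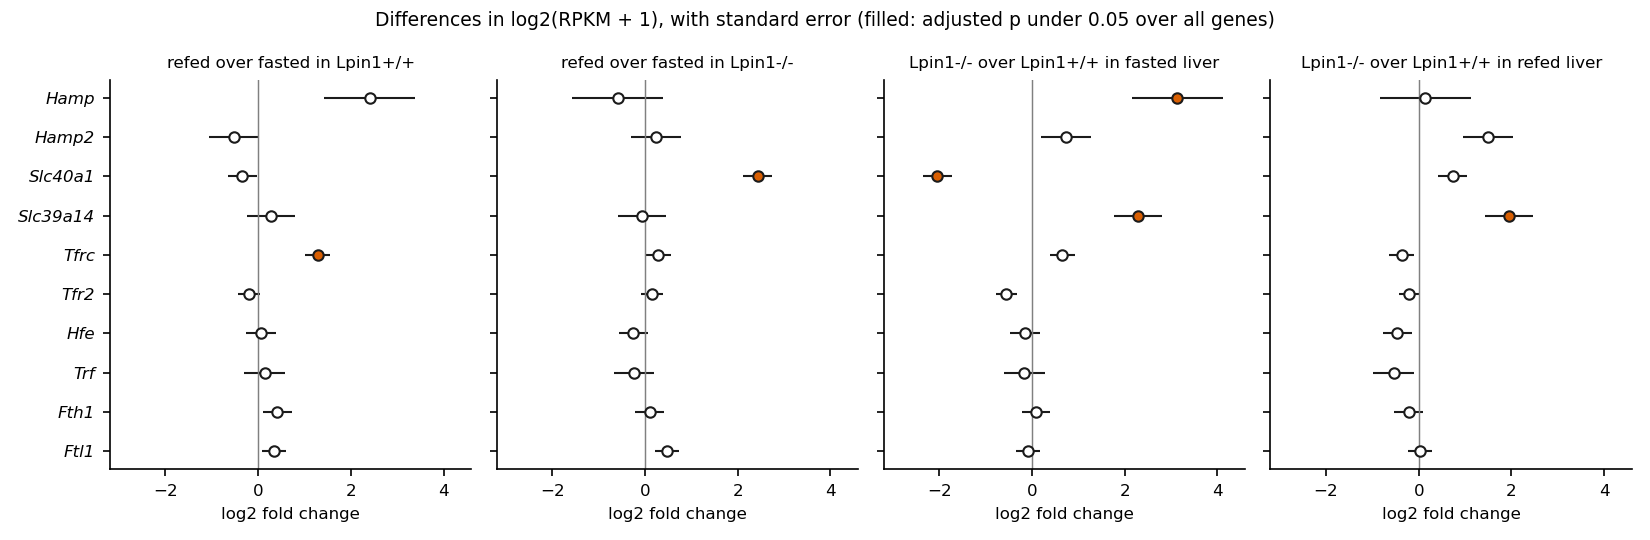
Log2 differences (log2(RPKM + 1) scale, points) with their standard errors (bars) for the 10 genes in 4 contrasts, filled where the adjusted p over all genes was under 0.05. Hamp, Slc39a14 and Slc40a1 were past the threshold between fasted genotypes, with Hamp at 3.14, Slc39a14 at 2.29 and Slc40a1 at -2.04.

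Hamp, on chromosome 7 (chr7:30942368-30944032, minus strand, GRCm38), had a mean 4.68 times as high in fasted Lpin1-/- as in fasted Lpin1+/+ liver, and refed means of 2917 and 2896 RPKM. Its RPKM in fasted Lpin1+/+ liver was 62.2, 1691 and 1032 in replicates 1 to 3 (928 ± 819, SD, n = 3), and in fasted Lpin1-/- liver it was 2989, 5144 and 4895 (4343 ± 1179, SD, n = 3). Every fasted Lpin1-/- library exceeded every fasted Lpin1+/+ library. Refed levels were 2801, 4614 and 1272 RPKM in Lpin1+/+ (2896 ± 1673, SD, n = 3) and 3976, 2812 and 1963 RPKM in Lpin1-/- liver (2917 ± 1011, SD, n = 3), and these overlapped. On the log2(RPKM + 1) scale, the difference between fasted genotypes was 3.14 (SE 0.98, adjusted p = 0.0442, limma over all genes tested).

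The size of this difference depended on 1 library. Without fasted Lpin1+/+ replicate 1 the log2 difference was 1.68 (adjusted p = 0.0526), without fasted Lpin1+/+ replicate 2 it was 4.05 (adjusted p = 0.0167), and leaving out any other fasted library also ended the call. Over all 21 alternatives it was lost under 11, with adjusted p from 0.0167 to 0.112. Within Lpin1+/+ liver, refed over fasted was 2.41 on the log2 scale (SE 0.98, adjusted p = 0.293), and the difference between the genotypes in the feeding response was -3.00 (SE 1.38, adjusted p = 0.28), so neither passed the threshold. The acute phase sum was 18441, 28140 and 21054 RPKM in fasted Lpin1+/+ and 51635, 34309 and 24456 RPKM in fasted Lpin1-/- liver. None of the 22 genes of the list was altered between these groups, against 18.8% of all genes. The part of the acute phase in the Hamp difference was not tested.

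Hamp2, a tandem duplicate of Hamp (chr7:30922372-30924681, minus strand), was a minor transcript. Its RPKM was 2.65, 6.25 and 5.55 in fasted Lpin1+/+ liver, 3.18, 8.22 and 19.9 in fasted Lpin1-/- liver, 1.51, 3.34 and 4.37 in refed Lpin1+/+ liver and 6.82, 8.54 and 16.5 in refed Lpin1-/- liver. The refed genotypes did not overlap, with a log2 difference of 1.49 (SE 0.54) that did not pass the threshold (adjusted p = 0.124) and passed with the replicate number as a block (adjusted p = 0.0281). Hamp RPKM was 23.4 to 1861 times Hamp2 RPKM within a library, with a median of 310. Hamp2 rested on as few as 57 reads in a library, and because the genes are closely related copies, reads of one could be counted in the other.

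The sequences upstream of both genes are shown because hepcidin transcription is known to depend on a BMP response element (BMP-RE) and a STAT3 site there. These are the 250 bases before the transcription start in RefSeq on GRCm38.p6, minus strand of chromosome 7, with matches to GGCGCC (BMP-RE) and TTCNNNGAA (STAT), searched on both strands, in capitals.
Hamp, chr7:30944030-30944279: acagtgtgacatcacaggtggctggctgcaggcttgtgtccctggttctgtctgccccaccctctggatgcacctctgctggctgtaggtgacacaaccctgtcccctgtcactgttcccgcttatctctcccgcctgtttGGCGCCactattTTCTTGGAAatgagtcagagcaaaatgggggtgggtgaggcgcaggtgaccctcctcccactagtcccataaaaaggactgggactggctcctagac
Hamp2, chr7:30924182-30924431: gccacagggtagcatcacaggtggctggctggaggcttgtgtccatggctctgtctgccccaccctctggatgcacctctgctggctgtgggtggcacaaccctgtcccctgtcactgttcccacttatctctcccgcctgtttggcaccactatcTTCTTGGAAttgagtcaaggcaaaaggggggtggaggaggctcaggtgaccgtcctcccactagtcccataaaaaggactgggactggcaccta
The Hamp window held GGCGCC with its first base 109 bases before the start and a STAT match 97 bases before it, 12 bases apart. Hamp2 held the STAT match, 94 bases before its start, and no GGCGCC. At the place where Hamp has GGCGCC, Hamp2 differed by 1 base, G4A (position counted from the first base of the Hamp motif, Hamp base first). GGCGCC was found in 9.59% and TTCNNNGAA in 7.02% of 32851 RefSeq promoter windows of this length. Of the 7 members with a RefSeq window, Tfrc also held GGCGCC, and no other member held either motif.

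Genes of the pathways that control hepcidin transcription were examined as lists of 25 genes of bone morphogenetic protein (BMP) and SMAD signaling and 12 genes of interleukin 6 (IL-6) and STAT3 signaling. In fasted liver, 3 of 23 BMP-SMAD genes tested were higher in Lpin1-/- than in Lpin1+/+ liver and none was lower, and in the IL-6-STAT3 list 1 of 11 was higher. Over all genes, 5.63% were higher in this contrast. In refed liver none of the 23 and 1 of the 11 passed, against 2.60% of all genes higher. That gene was Inhbb, placed in the IL-6-STAT3 list although it encodes a ligand subunit of the superfamily of the BMPs. With refeeding in Lpin1-/- liver, 2 of 23 BMP-SMAD genes rose (Acvr1 and Acvr2a, receptors of the superfamily) and 2 fell (Gdf15 and Atoh8), against 17.8% of all genes higher and 2.92% lower. Atoh8, a BMP target, was 5.17, 16.5 and 14.2 RPKM fasted and 5.76, 3.76 and 2.58 RPKM refed in Lpin1-/- liver. These groups overlapped, and the log2 difference of -1.28 (SE 0.38, adjusted p = 0.0365) was lost under 8 of 21 alternatives, with adjusted p up to 0.124.

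Id3, a BMP target gene that encodes a helix-loop-helix inhibitor, followed genotype in fasted liver. Its RPKM was 18, 55.3 and 50.6 in fasted Lpin1+/+ and 215, 286 and 89.3 in fasted Lpin1-/- liver, without overlap, and the log2 difference was 2.22 (SE 0.59, adjusted p = 0.0231), lost under 4 of 21 alternatives. Id1, a related target, was 2.52, 7.08 and 6.56 RPKM in fasted Lpin1+/+ and 22.8, 39 and 7.43 RPKM in fasted Lpin1-/- liver, a log2 difference of 1.74 (SE 0.60, adjusted p = 0.0655) that did not pass. Id1 was named as a relative of Id3 and not by the rule used for the lists. In the same contrast Id2 (0.41, SE 0.52, adjusted p = 0.622) and Atoh8 (0.55, SE 0.38, adjusted p = 0.352) did not pass. Fasted genotypes overlapped for Id2, Atoh8, Smad6 and Smad7. In refed liver the order was the other way, with Id3 at 130, 184 and 47.3 RPKM in Lpin1+/+ and 34.3, 53.3 and 76 RPKM in Lpin1-/- liver, but the groups overlapped (adjusted p = 0.349).

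Gdf15, a stress-induced cytokine of the same superfamily, had the largest difference past the threshold in either list. In fasted liver it was 2.51, 3.39 and 4.74 RPKM in Lpin1+/+ and 23.4, 44.8 and 13.2 RPKM in Lpin1-/- mice (log2 difference 2.49, SE 0.46, adjusted p = 0.00438). After refeeding it was 4.04, 10.3 and 2.98 RPKM in Lpin1+/+ and 2.22, 4.81 and 2.49 RPKM in Lpin1-/- mice, and these overlapped. Hfe2 (hemojuvelin, a BMP coreceptor) was 43.3, 38.9 and 47.1 RPKM in fasted Lpin1+/+ and 54.9, 76.4 and 97.2 RPKM in fasted Lpin1-/- liver, and its log2 difference of 0.77 (SE 0.24, adjusted p = 0.0461) was lost under 14 of 21 alternatives. It was named after its values were seen, as the third gene of the list that passed. In refed liver Hfe2 was 40.6, 50.9 and 27.5 RPKM in Lpin1+/+ and 59.3, 61.7 and 58.4 RPKM in Lpin1-/- mice. The refed groups did not overlap, but the log2 difference of 0.62 (SE 0.24, adjusted p = 0.155) did not pass. Averaged over feeding states, the Hfe2 difference passed (0.70, SE 0.17, adjusted p = 0.0145). The ligand Bmp6, made mainly by sinusoidal endothelial cells, ranged from 0.425 to 1.25 RPKM over the 12 libraries, and its log2 difference between fasted genotypes was 0.06 (SE 0.22, adjusted p = 0.882).

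Cebpb, a transcription factor that acts on the Hamp promoter and is induced by IL-6, was 62.2, 35.5 and 29.9 RPKM in fasted Lpin1+/+ and 89.3, 192 and 142 RPKM in fasted Lpin1-/- liver, without overlap. The log2 difference was 1.71 (SE 0.33, adjusted p = 0.00529) and passed under all 21 alternatives. Inhbb, which encodes the activin B subunit, was at 0.276, 0.207 and 0.124 RPKM in refed Lpin1+/+ and 3.7, 1.78 and 1.61 RPKM in refed Lpin1-/- liver (log2 difference 1.43, SE 0.34, adjusted p = 0.0294), a call lost under 8 of 20 alternatives. Stat3 itself did not pass in either genotype contrast (adjusted p = 0.87 fasted and 0.324 refed). Creb3l3, of the same list, went the other way from Cebpb. It was 208, 231 and 290 RPKM in fasted Lpin1+/+ and 112, 174 and 160 RPKM in fasted Lpin1-/- liver, without overlap. Its log2 difference was -0.72 (SE 0.24, adjusted p = 0.0555) in fasted liver and -0.58 (SE 0.24, adjusted p = 0.173) in refed liver. Averaged over feeding states it passed (-0.65, SE 0.17, adjusted p = 0.0179). Cebpa did not pass between fasted genotypes (-0.36, SE 0.34, adjusted p = 0.498).

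**Figure D3:**
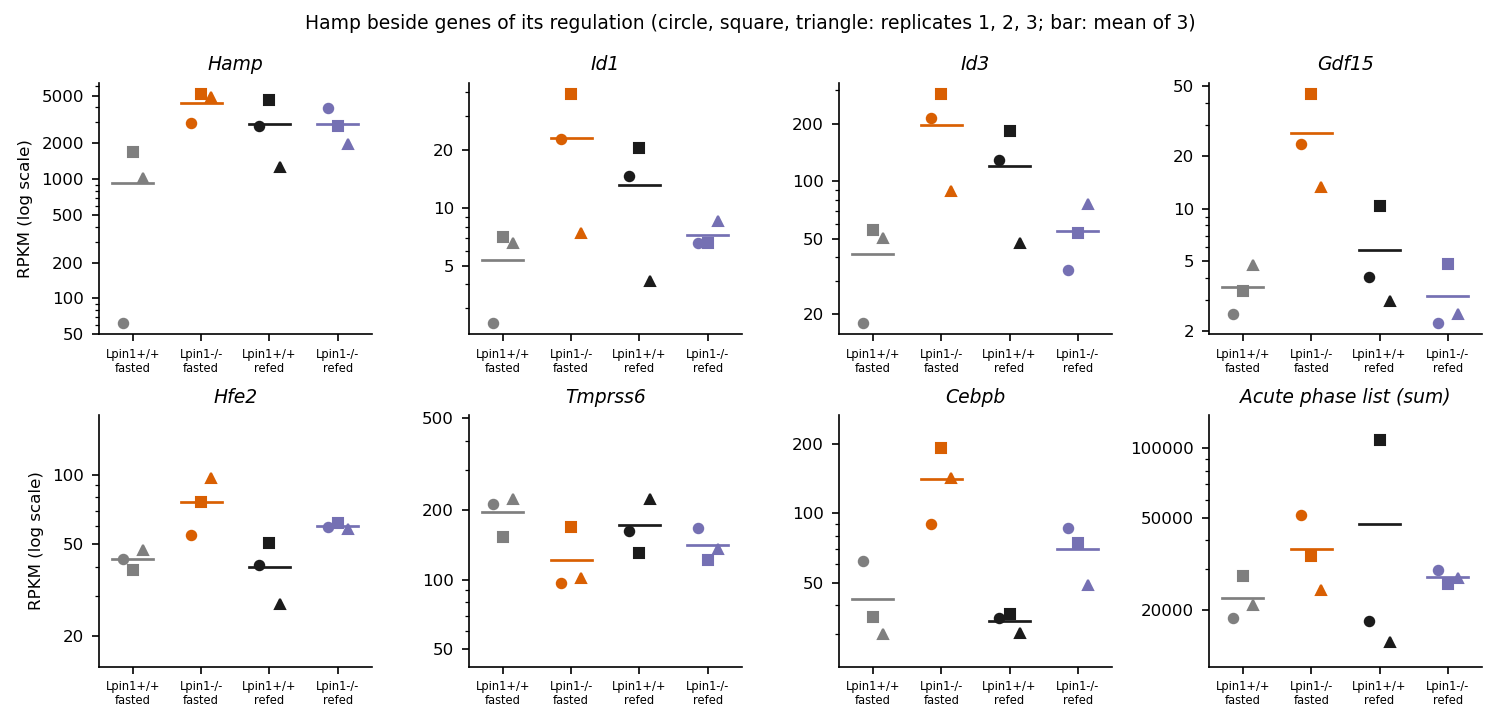
RPKM (log scale) of Hamp, 6 genes of its regulation and the sum of 22 acute phase genes in each of the 12 libraries, with group means as bars. Id3, Gdf15 and Cebpb were higher in every fasted Lpin1-/- library than in any fasted Lpin1+/+ library, and the acute phase sum was highest in refed Lpin1+/+ replicate 2, at 109372 RPKM.

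Slc40a1, the exporter that hepcidin acts on (chr1:45908068-45926523, minus strand), was lower in fasted Lpin1-/- than in fasted Lpin1+/+ liver and was higher again in refed Lpin1-/- liver. It was 68.6, 46.9 and 86.9 RPKM in fasted Lpin1+/+ liver (67.4 ± 20, SD, n = 3) and 15.1, 17.9 and 13 RPKM in fasted Lpin1-/- liver (15.3 ± 2.46, SD, n = 3). In refed liver it was 55.9, 76.3 and 32.1 RPKM in Lpin1+/+ (54.7 ± 22.1, SD, n = 3) and 83.3, 101 and 76.5 RPKM in Lpin1-/- mice (86.9 ± 12.7, SD, n = 3). The 3 fasted Lpin1-/- libraries were the lowest of the 12, and each refed Lpin1-/- library exceeded each refed Lpin1+/+ library.

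The log2 difference between genotypes in fasted liver was -2.04 (SE 0.31, adjusted p = 0.00155), and the difference between refed and fasted Lpin1-/- liver was 2.43 (SE 0.31, adjusted p = 7.8e-04). Both held under all 21 alternatives. In Lpin1+/+ liver refed over fasted was -0.34 (SE 0.31, adjusted p = 0.663), and the feeding response differed between the genotypes by 2.77 (SE 0.43, adjusted p = 0.0157). That difference was lost only without refed Lpin1-/- replicate 2 (adjusted p = 0.0595). In refed liver the genotype difference of 0.73 (SE 0.31) did not pass (adjusted p = 0.184), although the groups did not overlap.

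Kupffer cells also express ferroportin. Their 11 markers summed to 266, 193 and 397 RPKM in fasted Lpin1+/+ and to 1001, 509 and 368 RPKM in fasted Lpin1-/- liver. These sums overlapped, and none of the 11 markers passed between fasted genotypes, against 18.8% of all genes. In refed Lpin1-/- liver the sum was 118, 275 and 163 RPKM, below every fasted Lpin1-/- library. The median log2 difference of the 11 markers for refeeding in Lpin1-/- liver was -1.51, against 0.25 over all genes. Of the 11 markers, 1 (Clec4f) was called lower in refed than in fasted Lpin1-/- liver, against 2.92% of all genes. Sinusoidal endothelial markers summed to 32.9 to 84.9 RPKM in fasted Lpin1+/+ and 58.2 to 87.2 RPKM in fasted Lpin1-/- liver. Of these 10 markers, 1 (Lyve1) was higher in fasted Lpin1-/- liver, against 5.63% of all genes. A single gene is a large share of such short lists. The part of either cell type in the Slc40a1 differences was not tested.

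Slc39a14, which encodes the ZIP14 transporter of non-transferrin-bound iron, zinc and manganese (chr14:70303469-70351425, minus strand), was higher in Lpin1-/- liver in both feeding states. It was 48.1, 17.8 and 19.3 RPKM in fasted Lpin1+/+ (28.4 ± 17.1, SD, n = 3) and 75.2, 140 and 201 RPKM in fasted Lpin1-/- liver (139 ± 63.1, SD, n = 3). Refed values were 35.4, 22.8 and 37.9 RPKM in Lpin1+/+ (32 ± 8.13, SD, n = 3) and 265, 88.1 and 79.7 RPKM in Lpin1-/- mice (144 ± 105, SD, n = 3). The genotypes did not overlap in either state.

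The log2 difference was 2.29 in fasted liver (SE 0.52, adjusted p = 0.0116), 1.94 in refed liver (SE 0.52, adjusted p = 0.0475) and 2.11 averaged over both (SE 0.37, adjusted p = 0.00217). The averaged call held under all 20 alternatives. The fasted call was lost only without fasted Lpin1+/+ replicate 3 (adjusted p = 0.0537), and the refed call was lost under 15 of 21 alternatives (adjusted p from 0.0295 to 0.162), including without refed Lpin1-/- replicate 1 (1.39, adjusted p = 0.162) and with the replicate block (adjusted p = 0.064). The difference in the feeding response did not pass (-0.34, SE 0.73, adjusted p = 0.817).

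Tfrc, the receptor that takes up transferrin-bound iron (chr16:32608920-32632794, plus strand), rose with refeeding in Lpin1+/+ liver. It was 8, 3.58 and 3.51 RPKM in fasted Lpin1+/+ (5.03 ± 2.57, SD, n = 3) and 12.5, 13.2 and 13.3 RPKM in refed Lpin1+/+ liver (13 ± 0.419, SD, n = 3), without overlap. The log2 difference was 1.29 (SE 0.27, adjusted p = 0.0347). In Lpin1-/- liver it was 9.48, 6.66 and 7.89 RPKM fasted and 9.15, 8.3 and 12.6 RPKM refed, and these overlapped (log2 difference 0.28, SE 0.27, adjusted p = 0.473).

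The refeeding call was lost under 13 of 21 alternatives, with adjusted p from 0.00997 to 0.202. Without fasted Lpin1+/+ replicate 2 the difference was 1.13 (adjusted p = 0.147) and without replicate 3 of that group 1.12 (adjusted p = 0.147). Averaged over genotypes it was 0.79 (SE 0.19, adjusted p = 0.0158), lost only when libraries were rescaled (0.52, adjusted p = 0.0955). The genotypes did not differ in the response beyond the threshold (-1.01, SE 0.38, adjusted p = 0.199). Between fasted genotypes the Tfrc difference was 0.65 (SE 0.27, adjusted p = 0.117), which passed under 3 of 21 alternatives. These were rescaled libraries, fasted Lpin1+/+ replicate 1 left out, and that library left out with refed Lpin1+/+ replicate 2. The 10 erythroid markers summed to 576 to 859 RPKM in fasted and 502 to 867 RPKM in refed Lpin1+/+ liver.

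Trf, which encodes the iron carrier of plasma (chr9:103204001-103230444, minus strand), was the most abundant of the 10 genes. It was 7972, 7177 and 8009 RPKM in fasted Lpin1+/+ and 10973, 7166 and 4166 RPKM in fasted Lpin1-/- liver. Refed values were 5504, 14685 and 7509 RPKM in Lpin1+/+ and 6699, 5515 and 5337 RPKM in Lpin1-/- mice, the highest being the library with the high acute phase sum. No contrast of Trf passed, with log2 differences from -0.54 to 0.14 (SE 0.44) in the 4 contrasts. The overlapping gene model Gm20425 (chr9:103190208-103230307, minus strand) had 97.92% to 99.11% of the reads of Trf in each library, so reads of one may be counted in both, a mode of counting not given in the sources used here.

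Tfr2 and Hfe encode hepatocyte membrane proteins that sense transferrin saturation and act upstream of hepcidin. Tfr2 (chr5:137569840-137587481, plus strand) was 188, 144 and 150 RPKM in fasted Lpin1+/+, 83, 144 and 107 RPKM in fasted Lpin1-/-, 135, 121 and 165 RPKM in refed Lpin1+/+ and 146, 103 and 117 RPKM in refed Lpin1-/- liver. Its log2 difference between fasted genotypes was -0.55 (SE 0.23, adjusted p = 0.12). Hfe (chr13:23702034-23710854, minus strand) ranged from 18.5 to 44.8 RPKM over the 12 libraries. Its log2 differences ran from -0.46 to 0.06 (SE 0.32), and none passed.

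Fth1 and Ftl1 encode the chains of ferritin, the storage protein, and both were abundant in every library. Fth1 (chr19:9980598-9985098, plus strand) ranged from 2457 to 5412 RPKM and Ftl1 (chr7:45457944-45459884, minus strand) from 2670 to 4596 RPKM, with the highest level 2.2 and 1.72 times the lowest. For Ftl1, every refed library exceeded every fasted library within a genotype, with log2 differences of 0.35 (SE 0.26, adjusted p = 0.599) in Lpin1+/+ and 0.47 (SE 0.26, adjusted p = 0.222) in Lpin1-/- liver. Neither gene passed in any contrast.

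Wider lists of iron and heme genes were described by their counts. Together with the BMP-SMAD and IL-6-STAT3 lists, the 7 lists held 107 genes, of which 105 were in the matrix and 96 were tested. Refeeding altered none of the 96 in Lpin1+/+ liver (1.72% of all genes) and 11 of the 96 in Lpin1-/- liver, 8 higher and 3 lower (11.5%, against 20.7% of all genes). Between genotypes, 17 of the 96 passed in fasted liver, with 8 higher and 9 lower in Lpin1-/- (17.7%, against 18.8%), and 6 of the 96 in refed liver, 4 higher and 2 lower (6.25%, against 6.67%). In these 4 contrasts each share was below that of all genes, and averaged over feeding states 25 of the 96 differed between genotypes (26.0%, against 21.8%). Values are given for the genes with the largest differences past the threshold in each list, and outside that rule for Id1, Id2, Hfe2, Bmp6, Stat3, Creb3l3 and Cebpa. Acvr1, Acvr2a, Abcb6, Alad, Fech and Ciao1 are named only to complete counts, after their values were seen.

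Of 9 genes of iron uptake and export tested, 2 were higher and 1 was lower in fasted Lpin1-/- than in fasted Lpin1+/+ liver, against 5.63% and 13.2% of all genes. Scara5, a ferritin receptor, was 4.75, 1.15 and 1.39 RPKM in fasted Lpin1+/+ and 7.74, 16.5 and 19.6 RPKM in fasted Lpin1-/- liver (log2 difference 2.25, SE 0.46, adjusted p = 0.00757). It was also higher in refed Lpin1-/- liver, at 19.8, 6.8 and 12.2 RPKM against 3.99, 2.97 and 1.94 RPKM (log2 difference 1.73, SE 0.46, adjusted p = 0.0485), a call lost under 13 of 21 alternatives, the replicate block among them (adjusted p = 0.0695). Like Slc39a14, Scara5 did not overlap between genotypes in either feeding state. The 10 stellate cell markers summed to 252, 98 and 234 RPKM in fasted Lpin1+/+ and 357, 296 and 427 RPKM in fasted Lpin1-/- liver, without overlap. Of them, 1 (Col1a2) was higher, against 5.63% of all genes. In refed liver these sums overlapped, and the part of stellate cells in the fasted differences was not tested.

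The metalloreductases of the STEAP family moved in opposite directions. Steap3, which reduces iron in the endosomal transferrin cycle, was 10.6, 6.9 and 7.57 RPKM in fasted Lpin1+/+ and 2.27, 3.15 and 2.42 RPKM in fasted Lpin1-/- liver (log2 difference -1.36, SE 0.27, adjusted p = 0.0062), and it was lower in refed Lpin1-/- liver as well (-1.16, SE 0.27, adjusted p = 0.0286, lost under 6 of 21). Steap4 was 32.1, 14.7 and 17.6 RPKM in fasted Lpin1+/+ and 48.3, 97.5 and 88.3 RPKM in fasted Lpin1-/- liver (1.83, SE 0.45, adjusted p = 0.017), lost under 3 of 21 alternatives. Neither pair of fasted groups overlapped. Slc11a2, the divalent metal transporter, rose with refeeding in Lpin1-/- liver, from 2.94, 4.81 and 5.57 RPKM to 12, 11.1 and 10.2 RPKM (1.18, SE 0.24, adjusted p = 0.00638), and in Lpin1+/+ liver its difference was 0.82 (SE 0.24, adjusted p = 0.128).

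Of 13 heme synthesis genes, 5 were lower and 1 was higher in fasted Lpin1-/- liver, against 13.2% and 5.63% of all genes, with a median log2 difference of -0.61 against -0.14 over all genes. Alas1, the rate-limiting enzyme of the pathway in liver, was the one that was higher, at 251, 191 and 150 RPKM against 141, 45.5 and 24 RPKM (1.82, SE 0.53, adjusted p = 0.0345), and this call was lost under 8 of 21 alternatives. Cpox, coproporphyrinogen oxidase, had the largest fall, to 10.3, 24.8 and 27.7 RPKM from 85.8, 50.7 and 74.8 RPKM (-1.78, SE 0.35, adjusted p = 0.00609). The others that were lower were Abcb10, Abcb6, Alad and Fech, of which Abcb10 was also higher after refeeding in Lpin1-/- liver (1.07, SE 0.21, adjusted p = 0.00548). The erythroid markers, of which Alas2 is one, summed to 576 to 859 RPKM in fasted Lpin1+/+ and 467 to 1944 RPKM in fasted Lpin1-/- liver, and their part in the heme genes was not tested.

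In refed liver none of the 13 heme synthesis genes passed, with a median of -0.49. Of 10 genes of heme uptake and breakdown tested, 1 was lower in fasted Lpin1-/- liver (13.2% of all genes), Slc48a1, a lysosomal heme transporter (-0.83, SE 0.24, adjusted p = 0.0345), which was lost under 10 of 21 alternatives. The list had medians of -0.47 and -0.70 in fasted and refed liver.

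Of 20 genes of mitochondrial iron and iron-sulfur clusters, 1 was higher in fasted Lpin1-/- liver (5.63% of all genes). Slc25a28 (mitoferrin 2), which imports iron into mitochondria, was 18, 20 and 22.3 RPKM in fasted Lpin1-/- and 14.3, 9.03 and 13 RPKM in fasted Lpin1+/+ liver (0.70, SE 0.20, adjusted p = 0.031), and it was higher after refeeding too (0.77, SE 0.20, adjusted p = 0.0445), calls lost under 5 and 13 of 21 alternatives (with the replicate block, refed adjusted p = 0.0642). Iba57 was lower in refed Lpin1-/- liver (-0.74, SE 0.20, adjusted p = 0.0482, or 0.0743 with the replicate block, lost under 13 of 20) and Fdx1 fell with refeeding in Lpin1-/- liver (-0.92, SE 0.30, adjusted p = 0.0462, lost under 12 of 21). Among 10 chaperone, storage and IRP genes, the iron chaperone Pcbp1 (1.00, SE 0.23, adjusted p = 0.0116), Narfl of cytosolic iron-sulfur assembly (0.69, SE 0.19, adjusted p = 0.0241) and Ciao1 were higher after refeeding in Lpin1-/- liver, 3 of 10 against 17.8% of all genes, and none of the list passed between fasted genotypes. When libraries were rescaled, the call was lost for Pcbp1 (adjusted p = 0.0741) and Narfl (adjusted p = 0.322). Narfl was also higher in refed Lpin1-/- than in refed Lpin1+/+ liver (0.74, SE 0.19, adjusted p = 0.0384), lost under 11 of 21 alternatives, the replicate block among them (adjusted p = 0.0637).

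Exon skipping of the 10 genes was compared between genotypes within a feeding state, from lists that give the libraries by position and not by replicate number. In fasted liver 28 of 229 events tested were altered, against 10.8% of 69644 events of all genes. All 28 had lower inclusion in Lpin1-/- liver. The share with lower inclusion among all altered events was not counted, so this direction is not set apart from the background. In refed liver 1 of 281 was altered, against 1.03% of 65231. Events of a gene overlap and are not independent: the 13 altered events of Tfr2 shared 4 skipping junctions, and the 12 of Trf shared 1. The 2 of Tfrc had 2 junctions and the 1 of Hfe had 1. Hamp (5 events), Slc40a1 (1), Fth1 (3) and Ftl1 (6) had none altered in fasted liver, and Hamp2 had no tested event. None of 26 Slc39a14 events passed, but with 1 added to each count, or without library 3 of the fasted Lpin1-/- list, this gene had altered events too. The count of 28 became 17, 11 and 5 without libraries 1, 2 and 3 of the fasted Lpin1+/+ list in turn. It became 21, 11 and 35 without libraries 1, 2 and 3 of the fasted Lpin1-/- list. Among all fasted events, 7519 calls became 3565, 4228 and 3264 and then 4185, 3743 and 9336 in the same order. These shifts are therefore not particular to the 10 genes.

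Skipping was rare in most of these. In Tfrc, the exon at chr16:32617097-32617199 was skipped by 0, 0 and 0 reads in fasted Lpin1+/+ and 24, 12 and 5 reads in fasted Lpin1-/- libraries, with 224, 74 and 72 and with 44, 74 and 148 inclusion counts (log2 ratio difference -5.01, SE 1.00, adjusted p = 0.0083). A second Tfrc exon, chr16:32615193-32615394, was skipped by 0, 0 and 0 against 19, 24 and 3 reads (-4.37, SE 1.01, adjusted p = 0.0173). These are the events with the highest share of skipping among the 28, since inclusion in Lpin1-/- libraries went down to 42.2% and 67.6%. With counts of 0 in Lpin1+/+ libraries, these log2 differences depend on the 0.5 added to each count.

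In Hfe, the exon at chr13:23708028-23708291 was included in 99.6%, 100% and 98.8% in fasted Lpin1+/+ and 95.9%, 95.7% and 94.6% in fasted Lpin1-/- libraries, from 1, 0 and 5 against 19, 12 and 13 skipping reads (-3.36, SE 0.88, adjusted p = 0.0301). In Tfr2, the exon at chr5:137574814-137574936 was skipped by 2, 1 and 5 against 26, 22 and 16 reads (-3.66, SE 0.84, adjusted p = 0.0167). In Trf, 6, 4 and 3 skipping reads stood against 57, 44 and 32, beside 215682 or more inclusion counts for the exon at chr9:103211811-103211995 in Lpin1+/+ libraries (-3.24, SE 0.73, adjusted p = 0.0146). For Trf the reads also carry the overlap with Gm20425, and it was included in at least 99.9% in every library.

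The altered refed event was in Slc39a14. The exon at chr14:70331311-70331364 had 0, 0 and 1 inclusion counts in refed Lpin1+/+ and 108, 36 and 29 in refed Lpin1-/- libraries, beside 41, 30 and 57 against 231, 57 and 70 skipping counts (log2 ratio difference 4.85, SE 0.62, adjusted p = 0.0129). Inclusion was 0%, 0% and 0.968% against 20.7%, 26% and 18.8%, without overlap. The call was lost when any 1 of the 6 libraries was left out. Calls among all refed events then fell from 671 to 0, or to 13 without library 2 of the refed Lpin1-/- list. The loss is therefore not particular to this exon.

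Over the 12 libraries, which share groups, Pearson's r between pairs of the 10 genes ran from -0.68 (Slc39a14 and Hfe) to 0.71 (Hfe and Fth1), and it was -0.30 for Hamp and Slc40a1 and 0.34 for Hamp and Slc39a14. The genes whose log2(RPKM + 1) was most like Hamp over the 12 libraries were Tsr2 (r = 0.890), Wbp5 (0.869), Pam16 (0.856), Dph7 (0.853) and Urm1 (0.848). Tfr2 was most like Tmprss6 (0.929), which encodes matriptase 2, an inhibitor of hepcidin expression. For the other genes, the gene most like each was Tigd2 (0.866) for Hamp2, Kalrn (0.951) for Slc40a1, Atl2 (0.974) for Slc39a14, Zc3h7a (0.903) for Tfrc, Gm20425 (1.000, the overlapping model) for Trf, Nipa1 (0.947) for Hfe, Vamp4 (0.920) for Fth1 and Gm10116 (0.940) for Ftl1. These are descriptions over libraries of 4 groups and carry no test.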

How the data were processed

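Liver RNA-Seq of 12 libraries (4 groups of 3 mice, grouped by the labels) was analyzed. The authors mapped paired-end reads of a stranded kit to GRCm38 (HISAT2 2.0.5), obtained gene counts (HTSeq 0.6.0, strand setting not given in the sources used here) and deposited RPKM for 22456 genes. DESeq2 1.20.0 also stands in the submitters' processing notes. Exon inclusion and skipping counts per event were deposited by the authors from rMATS, with a list of 3 libraries per group and no replicate numbers. Their own p-values, FDRs and enrichment terms were not used.

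Genes averaging 0.5 RPKM or more (11507) entered 1 limma fit (version 3.58.1 in R 4.3.3) on log2(RPKM + 1) that held all 4 groups and a mean-variance trend. Benjamini-Hochberg adjustment covered all of these genes, and 0.05 was the threshold. A log2 difference on this scale understates the change of low genes. Exon events reaching 10 counts (inclusion plus skipping) in each library were also compared in limma, as log2 of inclusion over skipping, both divided by effective length after 0.5 was added. RPKM values gave back whole reads in 100% of 14117 genes above 0 in all libraries (relative tolerance 1e-09), which gave the depth of 93.49 to 124.9 M mapped reads. Fits were tested on simulated data. Replicates were separate mice. Same-numbered libraries of both refed genotypes deviated together weakly (correlations 0.19, 0.30 and 0.16), although no label ties same-numbered mice. For that contrast, values with the replicate number as a block stand beside the calls that it changed. In the other contrasts not every pair exceeded 0.1.

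The 10 genes and the lists were chosen with earlier results of these data known. From the lists, the 2 genes with the largest difference past the threshold per list and contrast were named, and for likeness the 5 genes most correlated with Hamp and up to 2 for each other gene. Alternatives were another pseudocount (0.1), no filter, a minimum mean of 5 RPKM, rescaled libraries, a replicate block, only the 6 libraries compared, no trend and each library left out. Voom on recovered reads, and leaving out fasted Lpin1+/+ replicate 1 with refed Lpin1+/+ replicate 2, were chosen after seeing the data. Sequences are from GENCODE M21 transcripts and RefSeq (GRCm38.p6). Tables and plots used pandas 2.3.3, matplotlib 3.10.9, numpy 2.4.6 and Python 3.11.15. A few items are not reported here.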

Additional observations from a re-analysis of the deposited data

Results flagged for a closer look

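The feeding response of Slc40a1 differed between the genotypes, by 2.77 on the log2(RPKM + 1) scale (SE 0.43, adjusted p = 0.0157, limma interaction term over all genes tested). Refeeding moved it by 2.43 in Lpin1-/- and by -0.34 in Lpin1+/+ liver, and 3 of 3 refed Lpin1-/- libraries exceeded 3 of 3 fasted ones.

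The feeding response of Gdf15 also differed, by -3.09 (SE 0.66, adjusted p = 0.046, limma interaction term). Refeeding moved it by -2.64 in Lpin1-/- and by 0.45 in Lpin1+/+ liver, and 3 of 3 refed Lpin1-/- libraries lay below 3 of 3 fasted ones. The difference was lost under 14 of 20 alternatives, with adjusted p from 0.027 to 0.127.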

How the results depend on the processing

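Over the 10 genes, 7 contrasts and all alternatives, 1384 of 1440 values kept their call, 42 lost it, 14 gained it and none of the 10 calls changed direction. The number of the 10 genes altered by refeeding in Lpin1+/+ liver (1) became 0 with no filter, rescaled libraries, the replicate block or only the 6 libraries compared. The number altered between refed genotypes (1) became 0 with no filter, only the 6 libraries, voom on recovered reads or fasted Lpin1+/+ replicate 1 and refed Lpin1+/+ replicate 2 both left out. Between fasted genotypes, the Hamp call was lost with no filter or only the 6 libraries compared. In that contrast Tfrc was gained with rescaled libraries or with this pair left out. For refeeding averaged over genotypes, 2 became 1 when rescaled, and for genotype averaged over feeding states 1 became 2 with a pseudocount of 0.1, a minimum mean of 5 RPKM, rescaled libraries, the replicate block, or the same pair left out. With 1 added to each count, refed exon events went from 1 to 2 and fasted ones from 28 to 37. Among the events of all genes, the calls went from 671 to 1231 and from 7519 to 8915.

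With each library left out in turn, the counts ranged from 0 to 1 for refeeding in Lpin1+/+, 1 to 1 for refeeding in Lpin1-/-, 1 to 3 for fasted genotypes, 0 to 1 for refed genotypes, 0 to 2 for the difference in the feeding response, 2 to 2 for feeding averaged and 1 to 3 for genotype averaged, 13 to 31 for the wider list genes altered in any of the 4 simple contrasts (27), 5 to 35 for fasted events (28) and 0 to 0 for refed events (1). The lowest were without fasted Lpin1+/+ replicate 3 for fasted genotypes, without fasted Lpin1-/- replicate 2 for the wider lists, without refed Lpin1-/- replicate 2 for the feeding response and without the third listed Lpin1+/+ library for fasted events. Of 28 calls on named list genes, 8 held under every alternative. Among the events of all genes, the calls in these leave-out fits ranged from 3264 to 9336 in fasted liver (7519) and from 0 to 13 in refed liver (671). The causes were not tested.

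With the replicate block, calls changed for 4 results of the 10 genes. Tfrc with refeeding in Lpin1+/+ (adjusted p = 0.0583) and Slc39a14 between refed genotypes (adjusted p = 0.064) were lost, and Hamp2 was gained between refed genotypes (adjusted p = 0.0281) and averaged. Over all genes, it moved the calls for refeeding in Lpin1+/+ from 198 to 93, for the difference in the feeding response from 147 to 81 and between refed genotypes from 767 to 526. Of 18 same-numbered pairs over all groups, 8 had correlated deviations above 0.1 (range of all pairs -0.47 to 0.74), all 3 between refed genotypes among them. The highest, 0.74 and 0.54, were between fasted Lpin1+/+ and refed Lpin1-/- libraries, which were not compared directly. Of 12 libraries, 4 correlated best with their own number, as many as replicate numbers without meaning would give. The precision of Hamp2 was limited by its 57 reads in the lowest library.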
